A study of Arabidopsis thaliana with 24 samples.

Results

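In roots of wild-type Arabidopsis thaliana, 93 genes read lower after cadmium, while the same genes read about level or higher after cadmium in roots of the mutant oas-a1.1. They were taken from 13513 probe sets with a single named gene, of which they are 0.688%. A gene belonged to the group when its mean log2 value after cadmium lay at least 0.8 below the untreated mean in WT roots, with each treated array below each untreated one, and no more than 0.2 below it in mutant roots. The genes were thus chosen by the log2 values of the 12 root arrays, and what the 93 genes show on those arrays is given below as a description without a test. Each of the 93 is measured by 1 probe set, and no probe set of theirs carries the suffix that marks binding to related transcripts. Only 10 have a symbol of their own in the annotation used (PDC2, CCL, ATSIK, PTI1-4, EXLA3, CML43, bHLH121, FTSZ2-1, ACA.l and SIS). The other 83 are known there by their locus name.

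OASA1 is the cytosolic enzyme that joins sulfide to O-acetylserine to make cysteine. Cysteine goes into glutathione, and glutathione into the phytochelatins, short peptides that bind cadmium and carry it into the vacuole. Roots meet the metal first, and their cells respond with changes in wall, redox, signalling and transport genes.

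The study used WT plants of accession Col-0 and oas-a1.1, an insertion line (SALK_072213) that is a single mutant line. Plants grew in hydroponic culture, and each organ and genotype was sampled untreated and after cadmium chloride, roots at 18 h and shoots at 24 h. The dose stands as 50 µM in the series design but as 50 mM in the sample protocols, so it is uncertain. The 8 groups held 3 biological replicates each, measured on 24 ATH1 arrays, 1 for each replicate, and this number limits the precision. The time of day at which untreated plants were taken is not stated. The tissue is a bulk organ, so fewer cells of a type and less RNA per cell cannot be told apart.

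Values are log2 RMA values between 3.27 and 14.11, and arrays of a group correlated at 0.971 to 0.993 across probe sets. The labelled organs matched their markers. PYK10, a root and seedling beta-glucosidase, read 11.86 to 12.85 in roots and 4.19 to 4.67 in shoots, and RCA, the activator of the carbon-fixing enzyme Rubisco, read 12.3 to 12.88 in shoots and 6.03 to 7.77 in roots. OASA1 is not named in the annotation used, so its level was not read. A 25S ribosomal RNA control separated 8 arrays at 4.62 to 6.0 from 16 at 7.72 to 11.96. In roots the low arrays were replicate 1 of treated WT, of untreated mutant and of treated mutant, with 0 among untreated WT roots. In shoots they were 1 treated and 2 untreated WT arrays, and 2 treated and 0 untreated mutant arrays. The split was thus uneven across the shoot groups that are compared below. The part of this split in the root differences was not tested.

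Over the 93 genes the WT difference, cadmium minus untreated, had a median of -0.997 on the log2 scale and ran from -3.19 to -0.80, with 46 genes at -1 or lower. The mutant difference had a median of 0.02 and ran from -0.19 to 1.38. It was above 0 for 52 genes and at or below 0 for 41, and 68 genes lay within 0.2 of 0. Over all single-gene probe sets the medians were 0.02 in WT and -0.02 in the mutant. The standard error of a mutant difference had a median of 0.24, and 65 of the 93 mutant differences were smaller than their own standard error. A value near 0 in the mutant is thus a mean within that error, not a shown absence of response.

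**Figure D1:**
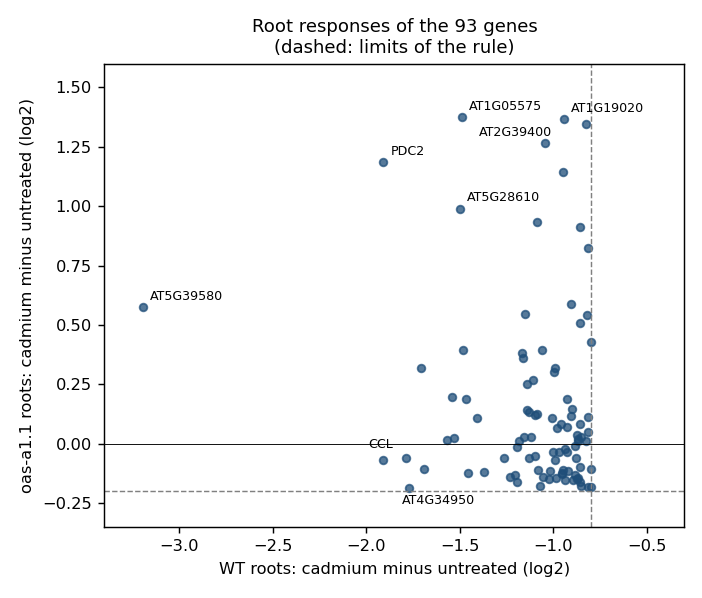
Cadmium minus untreated log2 difference of each of the 93 genes in WT roots (horizontal axis) and oas-a1.1 roots (vertical axis); dashed lines are the limits of the rule. AT5G39580 lies apart at -3.19 in WT, and 10 genes lie at 0.8 or higher in the mutant.

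Level by array shows how the pattern was built. Each gene was set against its own mean over the 12 root arrays, and the median of the 93 was taken. The untreated WT arrays stood at 0.73, 0.72 and 0.34, with 93, 91 and 75 genes above their own mean. Treated WT arrays stood at -0.36, -0.56 and -0.51, with 13, 3 and 5 genes above. Untreated mutant arrays stood at 0.07, -0.12 and -0.35, and treated mutant arrays at -0.02, 0.20 and -0.14. Replicate 3 of untreated WT was the lowest of its group and closest to the mutant arrays. Without that array the same rule named 194 genes, 90 of them among the 93, and without replicate 1 of treated WT it named 174, including 86 of them. With fewer arrays the rule asks for fewer arrays to be separate. That holds for each WT array left out, yet the other WT arrays gave no rise of that size. The rule named 76 and 88 genes without replicate 1 or 2 of untreated WT. It named 96 and 87 without replicate 2 or 3 of treated WT.

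**Figure D2:**
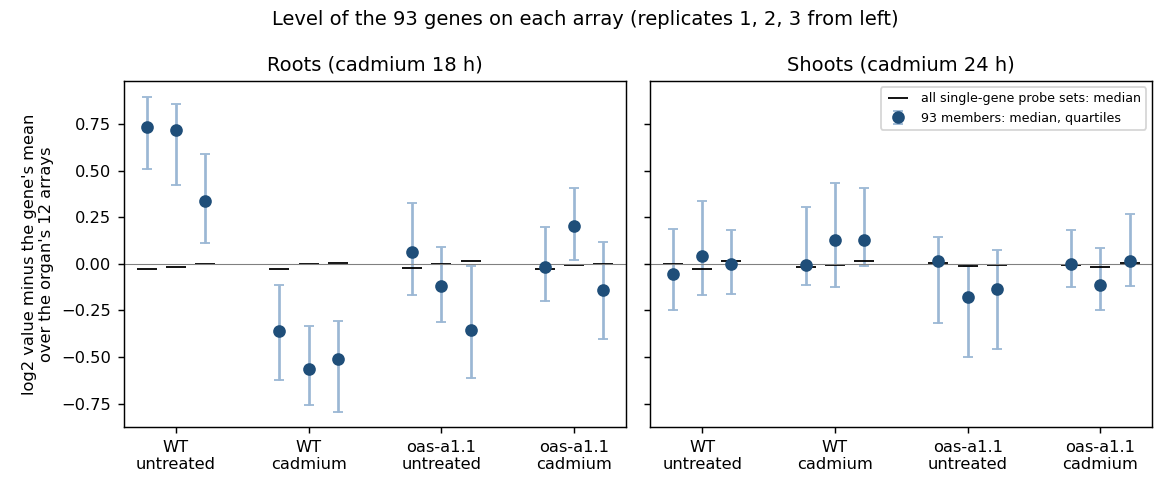
Median (points) and quartiles (bars) over the 93 genes of the log2 value minus each gene's mean over the organ's 12 arrays, by group, replicates 1 to 3 from left; short lines are the medians of all single-gene probe sets. Untreated WT roots lie at 0.34 to 0.73 and treated WT roots at -0.56 to -0.36, while the mutant root arrays lie at -0.35 to 0.20.

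The gene with the lowest WT difference encodes a class III peroxidase, one of the secreted enzymes that act on peroxide and phenolics in the wall. AT5G39580 read 8.96, 8.86 and 6.60 in untreated WT roots, 5.11, 4.89 and 4.84 after cadmium, 6.70, 7.08 and 5.81 in untreated mutant roots and 6.62, 7.54 and 7.16 in treated mutant roots. In WT it was thus 9.15-fold lower after cadmium, with a log2 difference of -3.19 and a standard error of 0.55. The treated WT arrays were the only ones below 5.5, while mutant arrays of both treatments overlapped. Replicate 3 of untreated WT read more than 2 units below its partners.

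Other genes of the wall and the space outside the cell moved less. EXLA3, an expansin-like protein, read 6.80, 6.17 and 5.96 in untreated WT roots, 5.06, 4.99 and 5.52 after cadmium, 5.41, 6.29 and 6.92 in untreated mutant roots and 6.46, 6.19 and 6.06 in treated ones. Its treated WT arrays lay below those of each other root group except for 1 untreated mutant array at 5.41. AT4G18340, of the glycoside hydrolase type that cuts beta-1,3-glucans, read 9.76, 9.87 and 9.62 in untreated WT roots, 8.15, 8.44 and 8.21 in treated WT roots, 8.91, 8.47 and 8.46 in untreated mutant roots and 8.71, 9.32 and 8.99 in treated mutant roots. Here the mutant sat between the WT groups, its untreated arrays below untreated WT and its treated arrays above treated WT. AT1G30700, a berberine-bridge type oxidase, had a WT difference of -1.13 and AT1G62770, related to inhibitors of pectin methylesterase, one of -0.86. Over these 5 genes the mutant difference ran from -0.06 to 0.58.

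Among metabolic enzymes, PDC2 stood out by its treated mutant roots. PDC2 is a pyruvate decarboxylase, the enzyme that opens ethanol fermentation. It read 9.96, 8.84 and 9.0 in untreated WT roots, 8.26, 7.0 and 6.81 after cadmium, 8.52, 8.83 and 8.07 in untreated mutant roots and 9.79, 9.64 and 9.55 in treated ones. The genotypes thus moved apart: WT was 3.76-fold lower after cadmium (-1.91, standard error 0.38), and the mutant mean was 1.19 higher. After cadmium the mutant stood 2.30 above WT, the largest such gap among the 93.

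A pair of CTP synthase genes, whose enzymes make the cytidine nucleotide used for RNA and lipids, were both members. AT1G30820 read 9.78, 9.62 and 9.75 in untreated WT roots, 7.84, 8.35 and 7.84 in treated WT roots, 8.52, 8.43 and 8.08 in untreated mutant roots and 8.34, 9.08 and 8.57 in treated mutant roots. All untreated WT arrays lay above all mutant arrays of either treatment. AT4G20320 read 7.51, 7.71 and 7.32 in untreated WT roots against 6.80, 5.90 and 5.73 after cadmium, and its mutant arrays lay between 6.28 and 6.99 in both treatments. AT1G80380, the glycerate kinase of photorespiration, read 11.56, 11.62 and 11.63 in untreated WT roots, 9.77, 10.28 and 10.35 in treated WT roots, 10.70, 10.36 and 9.71 in untreated mutant roots and 10.29, 10.81 and 10.24 in treated ones. As with AT1G30820, the untreated WT roots stood alone above the other 3 groups. AT5G12420, of the wax ester synthase family, differed from this: it read 8.37, 8.15 and 8.27 in untreated WT roots, 7.49, 7.19 and 7.12 after cadmium, and 7.59 to 8.39 on the mutant arrays, so the treated WT roots stood alone below the rest.

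CCL, named as CCR-like, read 7.40, 7.89 and 7.75 in untreated WT roots and 5.43, 5.64 and 6.24 after cadmium, which is 3.76-fold lower. Its mutant arrays spread widely, at 7.11, 7.64 and 5.68 untreated and 6.69, 7.70 and 5.83 treated. Replicate 3 was low in both mutant groups, and the mutant overlapped both WT groups. AT4G34950, a membrane protein of the major facilitator family, read 7.54, 7.13 and 7.57 in untreated WT roots, 6.02, 5.52 and 5.39 in treated WT roots, 7.51, 7.30 and 7.13 in untreated mutant roots and 7.63, 6.55 and 7.20 in treated ones. Untreated roots of both genotypes overlapped, and treated WT alone was low. AT5G46040, of the nitrate and peptide transporter family NRT1/PTR, was a further membrane transporter among the 93.

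Transcription regulators numbered 5, with WT differences from -1.54 to -0.88 and mutant differences from -0.05 to 0.20. AT5G61590, an ERF-type factor also called DEWAX and known as a repressor of wax synthesis, read 10.94, 11.14 and 11.03 in untreated WT roots, 9.26, 9.74 and 9.48 in treated WT roots, 10.39, 9.76 and 9.02 in untreated mutant roots and 9.63, 10.48 and 9.65 in treated mutant roots. Again untreated WT stood above each of the other groups, which overlapped among themselves. bHLH121, a regulator of the iron deficiency response, read 7.98, 8.48 and 7.73 in untreated WT roots, 7.26, 7.06 and 7.08 after cadmium, 7.97, 7.18 and 7.61 in untreated mutant roots and 7.43, 7.80 and 7.43 in treated ones. Its mutant arrays overlapped both WT groups. AT1G25550, a GARP-type factor of nitrate signalling, had a difference of -0.93 in WT and 0.19 in the mutant. The values were -0.88 and -0.01 for AT3G16350, a MYB-related protein, and -1.10 and -0.05 for AT2G41710, which has an AP2 domain.

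Protein kinases numbered 6, with WT differences from -1.41 to -0.82. ATSIK read 8.05, 7.92 and 7.51 in untreated WT roots, 5.95, 6.55 and 6.76 after cadmium, 6.95, 7.34 and 6.98 in untreated mutant roots and 6.82, 7.34 and 7.43 in treated ones. Mutant arrays of both treatments lay between the WT groups and did not overlap with either. PTI1-4, a kinase named after tomato Pti1 of pathogen signalling, read 7.34, 7.26 and 6.70 in untreated WT roots and 6.10, 5.81 and 5.97 in treated ones, against 6.60, 6.62 and 6.70 in untreated mutant and 6.93, 6.82 and 6.92 in treated mutant roots. AT1G53440, a receptor-like kinase, had a mutant difference of 0.54, the highest of the kinases. The remaining kinases were AT4G01330, AT2G31800 and AT1G18390, with mutant differences of -0.14, -0.07 and -0.18.

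Proteins that sense or bind calcium or calmodulin numbered 4. CML43, a calmodulin-like calcium sensor, read 8.07, 7.16 and 7.39 in untreated WT roots, 6.86, 6.65 and 6.09 after cadmium, 7.94, 7.23 and 6.84 in untreated mutant roots and 7.26, 7.67 and 7.41 in treated ones. Only the treated WT roots differed in mean from the other groups by more than 0.8. The others, AT2G26190, AT3G52870 and AT2G18750, are of calmodulin-binding type, with WT differences of -0.91, -0.93 and -0.86. AT2G26190 had the highest mutant difference of the 4, at 0.59. CML38 shows the limit of the rule: its WT mean differed by -1.41 and its mutant mean by 1.92, but WT arrays overlapped, at 8.21, 6.57 and 5.64 untreated and 6.50, 4.47 and 5.21 treated, so it is not among the 93. In all, 28 genes met both limits on the means with overlapping WT arrays.

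RING-type proteins, many of which attach ubiquitin to other proteins, numbered 7: AT1G14260, AT3G47160, AT5G58787, AT2G18670, AT3G43430, AT3G13430 and AT5G38895. Their WT differences ran from -1.26 to -0.87 and their untreated mutant roots stood 0.56 to 1.01 below untreated WT. AT3G43430 was the member with the largest mutant difference, 0.93: it read 8.26, 8.33 and 7.72 in untreated WT roots, 7.21, 6.74 and 7.09 after cadmium, 7.33, 6.80 and 7.15 in untreated mutant roots and 7.68, 8.46 and 7.94 in treated ones. Its treated mutant arrays thus lay at the level of untreated WT, and its untreated mutant arrays at the level of treated WT. For the other 6 the mutant difference ran no further than 0.13 from 0. AT3G23880 belongs to the F-box family, which gives substrate choice to another class of ubiquitin ligase. It read 7.23, 7.80 and 7.39 in untreated WT roots, 6.16, 5.32 and 5.57 after cadmium, 6.72, 5.73 and 5.46 in untreated mutant roots and 6.04, 5.97 and 5.72 in treated ones. Only untreated WT stood apart.

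Aspartic protease family genes numbered 3. AT5G19120 read 11.14, 10.92 and 10.95 in untreated WT roots, 9.85, 9.75 and 9.90 after cadmium, 9.73, 9.72 and 8.90 in untreated mutant roots and 9.79, 10.44 and 9.27 in treated ones. Untreated mutant roots were thus at the level of treated WT roots, 1.55 below untreated WT. AT5G37540 had a similar layout, with the untreated mutant 1.16 below untreated WT. AT3G59080 was the exception in the family: its mutant mean was 0.91 higher after cadmium.

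Further members with large WT differences were AT5G02230, AT4G16000 and AT5G18490. AT5G02230, a hydrolase of the haloacid dehalogenase type, read 8.70, 8.52 and 7.59 in untreated WT roots, 6.95, 6.34 and 6.45 after cadmium, 7.43, 7.60 and 7.69 in untreated mutant roots and 7.33, 7.73 and 7.34 in treated ones. AT4G16000, a gene of little known function, read 7.18, 7.93 and 6.87, then 5.90, 5.71 and 5.67 in WT, and 6.32, 6.10 and 5.84, then 5.86, 6.27 and 6.18 in the mutant, each time untreated first. AT5G18490 read 8.47, 8.59 and 8.50, then 7.28, 7.23 and 6.45 in WT, and 8.16, 7.53 and 7.56, then 7.88, 8.02 and 7.42 in the mutant. In AT5G02230 and AT5G18490 the mutant arrays lay above treated WT, whereas in AT4G16000 they lay close to it. AT3G15450, of the type named as aluminium-induced, read 13.21, 12.93 and 12.84 untreated and 11.56, 11.87 and 11.96 after cadmium. Single members of other kinds included FTSZ2-1, a plastid division protein, and AT2G28660, which carries a heavy-metal-associated domain. Of the 93 genes, 38 were placed in the groups of wall, metabolism, transcription, kinase, calcium, RING, protease or ankyrin-repeat proteins, and 55 were not.

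The mutant was 0.8 or more higher after cadmium for 10 of the 93 genes. They were AT1G05575 (1.38), AT1G19020 (1.37), AT1G76600 (1.35), AT2G39400 (1.27), PDC2 (1.19), AT4G36500 (1.14), AT5G28610 (0.99), AT3G43430 (0.93), AT3G59080 (0.91) and AT2G27830 (0.82). AT1G05575 read 8.57, 8.65 and 7.41 in untreated WT roots, 7.14, 6.38 and 6.64 after cadmium, 6.97, 6.76 and 6.22 in untreated mutant roots and 8.10, 8.01 and 7.97 in treated ones. AT5G28610 read 7.01, 6.72 and 6.21, then 5.66, 4.82 and 4.96 in WT, and 5.78, 5.07 and 4.66, then 6.30, 6.42 and 5.76 in the mutant. Both genes had the order of treatments turned round between genotypes: the untreated WT and the treated mutant were high, and the treated WT and the untreated mutant were low. AT1G19020 differed in that its treated mutant arrays, 9.73, 9.20 and 9.28, lay above all of its WT arrays, the highest of which read 9.06.

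In untreated roots the mutant minus WT difference had a median of -0.70 and was below 0 for 88 genes. After cadmium the difference had a median of 0.50 and was above 0 for 84 genes. Medians over all single-gene probe sets were 0.02 and -0.02. These gaps share their arrays with the rule, which chose genes high in untreated WT and low in treated WT, so their signs are largely fixed by the choice of genes. Every untreated mutant array lay below every untreated WT array for 52 members, where 4.34% of all single-gene probe sets did so. Every treated mutant array lay above every treated WT array for 44 members, against 6.08%. Nothing is read from these shares, since the rule used the same arrays.

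The genotype difference can be split between the untreated and the treated side, again as a description from the arrays that the rule used. The median share on the untreated side was 54.4%; that side was the larger for 52 genes, the treated side for 40, and they were equal for 1. By non-overlapping arrays, 37 genes were separate on the untreated side alone, 29 on the cadmium side alone, 15 on both and 12 on neither. Shares of all single-gene probe sets were not counted for these classes, and nothing is read from the class sizes. The 37 had median gaps of -0.94 untreated and 0.26 treated; the 29 had -0.22 and 0.84. In the 15 separate on both sides the gaps were -0.93 and 0.79.

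Genes whose mutant arrays lay below untreated WT in both treatments included AT3G07310, AT5G19120 and AT1G30820. AT3G07310 read 9.71, 9.98 and 9.81 in untreated WT roots, 9.23, 9.03 and 8.62 after cadmium, 8.66, 8.41 and 7.95 in untreated mutant roots and 8.43, 8.94 and 7.76 in treated ones. Its treated mutant mean lay 0.58 below treated WT, the lowest such value of the 93. At the other end, AT5G51160, an ankyrin-repeat protein, read 6.98, 6.83 and 6.25 in untreated WT roots, 6.24, 5.74 and 5.27 after cadmium, 7.70, 6.54 and 6.91 in untreated mutant roots and 7.08, 6.94 and 6.67 in treated ones. Its untreated mutant mean lay 0.36 above WT, so only treated WT was low. AT3G45730, AT3G52870, AT3G18860 and AT1G18390 were the other members whose untreated mutant mean was not below WT.

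**Figure D3:**
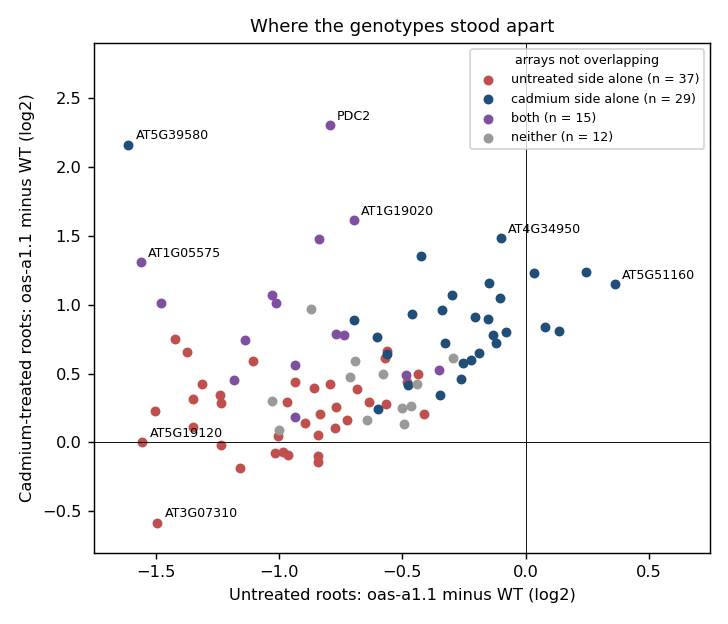
oas-a1.1 minus WT log2 difference in untreated roots (horizontal axis) and in cadmium-treated roots (vertical axis) for the 93 genes, coloured by which side had arrays that did not overlap. Red points (untreated side alone) have medians of -0.94 on the horizontal axis and 0.26 on the vertical axis. Blue points (cadmium side alone) have medians of -0.22 and 0.84, and both classes spread around them. The blue point of AT5G39580 lies furthest left, at -1.61, and PDC2 lies at 2.30 on the vertical axis.

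Array signals of different probe sets do not share a scale, so levels are compared here only as shares of dim and bright signals. The median signal of the members in untreated WT roots was 7.83, against 5.09 over all single-gene probe sets, and a gene at the lowest values has little room to fall, so the rule favours brighter genes. In shoots, which the rule did not use, 14 of the 93 (15.1%) had a mean under 5, against 49.1% of all. The root mean exceeded the shoot mean by 1 or more for 29 members (31.2%, against 9.2%), and the shoot mean exceeded the root mean by as much for 19 (20.4%, against 10.1%). The root means come from the arrays that the rule used, and all probe sets include a larger share of dim ones. Nothing is thus read from these shares between organs. The 93 genes lay on all 5 chromosomes (21, 14, 22, 11 and 25 genes on chromosomes 1 to 5), and none lay within 2 genes of another.

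Genes just at the limits show how close the choice was. At the WT limit AT5G27280, AT5G14230 and AT1G10090 were included at -0.80, while AT1G28260 at -0.797, AT3G04640 at -0.79 and AT5G43520 at -0.77 were not. At the mutant limit AT4G34950 at -0.19 and AT3G13740 and AT1G10090 at -0.18 were included, while AT1G19540 at -0.21 and AT1G07135 and AT3G26770 at -0.22 were not. A further 188 genes met the WT conditions with a mutant difference below -0.2. One gene that met every limit, AT1G76590, was left out by name.

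The shoot arrays ask whether these root genes respond to cadmium in an organ that did not choose them. In WT shoots 23 of the 93 genes passed the test (limma, adjusted p under 0.05), which is 24.7%, where 5.58% of all 22746 probe sets passed. Of the 23, 16 rose and 7 fell; 2.95% of all probe sets rose and 2.64% fell. Members are more often well expressed than other probe sets, and among those with a shoot mean of 5 or more the shares were 29.1% of members and 9.34% of all. The count was 13 without replicate 1 of untreated WT shoots, 14 without replicate 2 of untreated WT, or replicate 2 or 3 of treated WT. For counts with an array left out or with another fit, here and below, the share of all probe sets was not counted. Such moves are not read as particular to the members.

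AT5G02230, the dehalogenase-type hydrolase, read 6.04, 5.52 and 6.20 in untreated WT shoots and 7.52, 7.93 and 7.73 after cadmium. It rose by 1.81 on the log2 scale (standard error 0.20, limma adjusted p = 6.8e-04). The aspartic protease gene AT5G19120 rose by 1.70 (0.19, limma adjusted p = 7.1e-04), from 7.67, 7.80 and 7.59 to 9.32, 9.65 and 9.20. In both genes the treated arrays lay more than 1 unit above the untreated ones, the reverse of their order in WT roots.

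SIS, a serine-rich protein induced by salt, rose by 1.69 (standard error 0.20, limma adjusted p = 8.4e-04), from 7.47, 7.27 and 7.14 to 8.90, 9.11 and 8.94. AT4G05070, of the wound-responsive family, rose by 1.13 (0.13, limma adjusted p = 9.4e-04), from 8.84, 8.87 and 8.75 to 9.83, 10.06 and 9.95. AT4G16000 rose by 1.82 (0.26, limma adjusted p = 0.00254), from 6.57, 6.33 and 6.73 to 7.78, 8.58 and 8.73. AT3G07310 rose by 0.89 (0.16, limma adjusted p = 0.00858), from 8.36, 8.63 and 9.09 to 9.55, 9.65 and 9.54. No treated array of these genes overlapped an untreated one. Others that rose included AT3G15450, by 1.64, and the CTP synthase gene AT1G30820.

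The 7 genes that fell in WT shoots did so in the same direction as in WT roots. AT4G33985 fell by 1.07 (standard error 0.12, limma adjusted p = 8.0e-04), from 7.08, 7.11 and 6.79 to 5.95, 5.74 and 6.07. AT3G02070, an OTU-type cysteine protease, fell by 0.82 (0.11, limma adjusted p = 0.00191), from 7.89, 7.80 and 7.97 to 6.92, 7.09 and 7.19. AT1G19380 fell by 2.20, from 9.94, 9.81 and 8.42 to 7.39, 7.14 and 7.03. The other 4 were AT4G34950, AT2G36470, AT3G52870 and AT1G25275, among them the major facilitator gene and a calmodulin-binding one.

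In mutant shoots 7 members passed the test for cadmium, 6 higher and 1 lower (limma; 2.18% of all probe sets passed, 1.17% higher and 1.01% lower). AT4G05070 rose by 1.12 (limma adjusted p = 0.00200), from 8.53, 7.91 and 8.25 to 9.39, 9.30 and 9.35, as it did in WT. PDC2 rose by 1.47 (limma adjusted p = 0.00763), from 10.43, 10.30 and 9.57 to 11.85, 11.46 and 11.39, and in WT shoots it read 11.08, 11.35 and 11.18 untreated and 11.37, 11.16 and 11.79 treated.

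AT4G36500 rose by 0.97 (limma adjusted p = 0.0158), and AT3G23880, the F-box gene, fell by 1.1 (limma adjusted p = 0.0251). AT4G14230 (0.64), AT2G24240 (0.77) and AT2G38790 (0.64) rose too, with limma adjusted p of 0.0272, 0.0404 and 0.0476. AT2G38790 lost its call without any 1 of the 6 mutant shoot arrays, AT2G24240 and AT3G23880 without 5 of the 6, AT4G14230 without 3 and AT4G36500 without 2, with limma adjusted p up to 0.153. Without replicate 1 of treated mutant shoots the count fell to 2, without replicate 3 to 3, and without replicate 2, or replicate 3 of untreated mutant shoots, to 4. AT4G05070 and AT2G24240 were the members called in shoots of both genotypes, beside 21 called in WT alone and 5 in the mutant alone. Those counts have no share of all probe sets beside them, and they do not compare the genotypes, which the next test does.

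**Figure D4:**
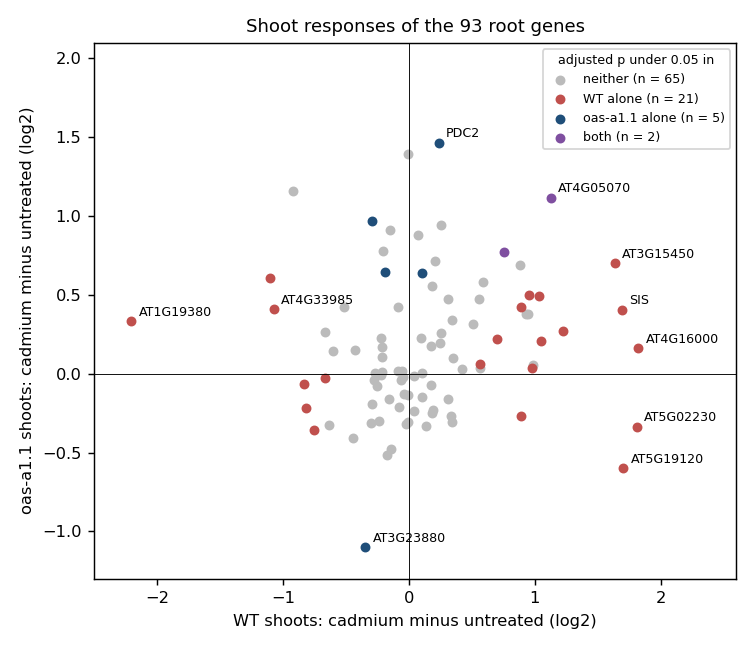
Cadmium minus untreated log2 difference of the 93 genes in WT shoots (horizontal axis) and oas-a1.1 shoots (vertical axis), coloured by the genotype in which limma called a change. AT5G02230, AT5G19120, AT4G16000, SIS and AT3G15450 lie at 1.64 to 1.82 in WT, and PDC2 lies at 1.47 in the mutant.

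The shoot response itself differed between genotypes for 3 members (limma interaction, 1 higher and 2 lower, where 0.444% of all probe sets passed, 0.207% higher and 0.237% lower). For AT5G19120 the mutant response was 2.30 lower than that of WT (-2.30, standard error 0.27, limma adjusted p = 0.00782). Its mutant arrays read 8.82, 9.0 and 8.85 untreated and 8.54, 7.78 and 8.55 after cadmium, so untreated mutant shoots lay above untreated WT shoots. For AT5G02230 the difference in response was -2.14 (0.28, limma adjusted p = 0.0120), with mutant arrays at 7.47, 7.57 and 8.04 untreated and 7.44, 7.15 and 7.48 treated. Here untreated mutant shoots were at the level of treated WT shoots. AT4G33985 went the other way, by 1.48 (0.17, limma adjusted p = 0.00782), with 6.36, 6.40 and 6.53 in untreated mutant shoots and 6.99, 6.66 and 6.87 in treated ones. In all 3 genes the WT response was the larger in size. Without replicate 3 of untreated WT shoots 13 members passed, and without replicate 1 of treated WT shoots 5 did. The count was 23 with array weights, 8 in the upper 60% of probe sets by level, 7 with a trended and robust prior, and 6 with centred arrays or with all 24 arrays in 1 model. The matching shares of all probe sets were not counted.

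In untreated shoots 5 members differed between mutant and WT (limma, 2 higher and 3 lower in the mutant, where 1.46% of all probe sets passed, 0.642% higher and 0.813% lower). AT5G02230 was higher by 1.77 (limma adjusted p = 0.00298) and AT5G19120 by 1.20 (limma adjusted p = 0.0150). PDC2 was lower in the mutant (-1.103, limma adjusted p = 0.0422), as were AT4G36500 (-0.85, limma adjusted p = 0.0400) and AT1G25275 (-0.69, limma adjusted p = 0.0194). The count was 13 without replicate 3 of untreated WT shoots and 8 without replicate 1 of untreated mutant shoots. It was 2 without replicate 3 of untreated mutant shoots, and 1 without replicate 1 or 2 of untreated WT or replicate 2 of untreated mutant shoots.

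After cadmium 2 members differed between the genotypes in shoots (limma, where 0.154% of all probe sets passed, 0.0703% higher and 0.0835% lower). AT4G33985 was higher in the mutant by 0.92 (limma adjusted p = 0.0182), and SIS was lower by 1.41 (-1.41, limma adjusted p = 0.0197), with 7.22, 7.51 and 7.99 on treated mutant arrays. Without any 1 of the treated shoot arrays the count was 0 or 1. Over all shoot comparisons 28 of the 93 members passed at least 1 test and 65 passed none. The share of all probe sets that passed at least 1 test was not counted, so nothing is read from these numbers.

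Before adjustment (limma p under 0.05), more members reached the threshold. They numbered 39 for cadmium in WT shoots, 30 for cadmium in mutant shoots, 35 for the interaction, 31 for the untreated genotypes and 33 for the treated ones. The shares of members were 41.9%, 32.3%, 37.6%, 33.3% and 35.5%, against 17.6%, 13.9%, 12.2%, 14.6% and 9.0% of all probe sets. Members were also less often dim in shoots than other probe sets, as given above. The median member differed little in each comparison, by 0.07, 0.10, -0.01, -0.14 and -0.10 in the same order, so members moved both ways in shoots. Members above 0 numbered 49, 57, 45, 31 and 34, and members below 0 numbered 44, 36, 47, 61 and 59. Of all probe sets 50.2%, 49.9%, 48.9%, 49.3% and 48.3% lay above 0. More members thus read lower than higher in mutant shoots than in WT shoots under either treatment, a lean that was not tested.

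AT5G39580, the peroxidase gene with the lowest WT root difference, read 3.73 to 4.14 on all shoot arrays, near the lowest values measured. The single-gene probe sets outside the 93 whose shoot values correlated best with it were AT3G06630 (Pearson r = 0.866 over 12 shoot arrays), SIZ1 (0.801), AT5G23400 (0.798), AT3G20710 (0.796) and AT2G48080 (0.793). With a target that varied by so little, these correlations describe values near the floor of the arrays.

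Genes of chosen families were read in roots from lists, which held 172 measured probe sets of 171 genes besides 4 members. Only the lists of bHLH and bZIP factors, calcium signalling, cell wall, and mitochondrial and hypoxia genes held a member. Planned lists of ERF and DREB factors, receptor kinases, jasmonate genes, ABC transporters and cell cycle genes matched no probe set. Those of MYB factors, NAC factors and aquaporins matched 1 each. The lists thus do not show which families lacked members, and the ERF-type member AT5G61590 was in none of them. Members are left out of the tests here, since the rule used these arrays. In WT roots 6 of the 172 rose and 2 fell (limma; 1.64% of all probe sets rose and 2.27% fell). In mutant roots 4 rose and 7 fell (2.46% and 1.81%). EXLA1, the sister of EXLA3, fell in both genotypes, by 2.15 in WT (limma adjusted p = 0.00477) and by 1.64 in the mutant (limma adjusted p = 0.0177), whereas the mutant difference of EXLA3 was 0.03. EXLA2 differed by 0.00 and -0.23 and did not pass. WRKY6, a factor of phosphate and defence responses, fell in WT by 0.85 (limma adjusted p = 0.0387), with a mutant difference of -0.36. WRKY53, a senescence and defence factor, rose in the mutant by 2.28 (limma adjusted p = 7.4e-04), with a WT difference of 0.20.

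The calcium list, matched by symbol or synonym, held 7 genes besides CML43 and left out the calmodulin-binding members. Of these 7 genes, 0 passed in either genotype (limma, with 1 in WT and 1 in the mutant at an unadjusted p under 0.05). Of 14 genes of the ubiquitin ligase list, which held none of the RING-type members, 0 passed as well (2 and 2 before adjustment). In WT the list medians were 0.14 and 0.01. Of 65 cell wall probe sets besides EXLA3, 3 rose and 1 fell in WT, and 1 rose and 7 fell in the mutant, with differences of -1.85 for EXPB1 and -1.33 for XTH21. The bHLH factors that work with bHLH121 in the iron response did not pass in WT: bHLH104 differed by -0.26, bHLH115 by 0.41, ILR3 by -0.01 and bHLH34 by 0.33. NDB2, a mitochondrial NADH dehydrogenase, rose in both genotypes, by 1.50 in WT (limma adjusted p = 0.00623) and by 1.01 in the mutant (limma adjusted p = 0.0411). With the members counted in, 10 list probe sets passed in WT and 11 in the mutant. These counts were 17 and 18 with replicate number as a block, 17 and 17 with all 24 arrays in 1 model, 6 and 7 with only the compared arrays, and 26 in the mutant with array weights. The WT count ranged from 3 to 9 when 1 array was left out, from 3 without replicate 1 of untreated WT or replicate 3 of treated WT to 9 without replicate 3 of untreated WT.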

How the data were processed

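RNA from roots and shoots was measured on ATH1 arrays. The deposited values are log2 values that the authors made with RMA, per the submitters' processing notes, which also name affy; their versions are not stated in the sources used, nor is whether all arrays were normalized together. RMA equalises array distributions, so a shift of all genes would not show. Values were used as deposited, with 0 columns lacking a sample label. Of 22746 probe sets besides 64 controls, 13513 have 1 gene, 503 several and 8730 none in the platform annotation; 13436 of the 13513, and all 93 members, matched the RefSeq gene table.

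Each organ was fitted with limma 3.58.1 in R 4.3.3 over its 12 arrays and 4 groups. Tests were two-sided, adjusted by Benjamini and Hochberg over all 22746 probe sets, and called under 0.05. Standard errors come from that fit. The scripts were tested on simulated data.

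The members and lists were chosen with earlier results of these data known, and the role groups after membership was known. Every member could be named. Values on every root array were planned for the 12 members with the largest WT difference and for list members, and further members are shown as examples of their role, picked after their values were seen. Shoot statistics are for up to 8 called members per comparison by p, and the values of AT1G19380 and AT3G15450 were added after they were seen. Family lists were matched by symbol or synonym, so a gene such as PHV could enter through an unrelated synonym.

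Same-numbered replicates were checked as pairs by correlating residuals. In no shoot comparison were all 3 correlations above 0.1, nor in the cadmium comparisons in roots (0.6, -0.15 and 0.44 in WT; 0.49, 0.02 and 0.39 in the mutant), so no block was used in the tests. The check does not show that root replicates were unrelated, since replicates 1 and 3 correlated in both of these comparisons. With a block the list counts in roots were higher, as given above. Between genotypes in treated roots all 3 were above 0.1 (0.64, 0.11 and 0.22), but that comparison is not tested here. Alternatives were a level filter, array centring, repeated quantile normalization, other sets of arrays, a trended and robust prior, array weights, a replicate block, the 25S level as a covariate, and leaving out each array. The share among probe sets with a shoot mean of 5 or more was added after seeing the data. Promoter motifs were planned but not analysed here.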

Additional observations from a re-analysis of the deposited data

Results flagged for a closer look

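The shoot response to cadmium differed between genotypes by a test of the difference itself in 3 genes (limma interaction). The mutant minus WT response was -2.3 for AT5G19120, -2.14 for AT5G02230 and 1.48 for AT4G33985, each with 3 arrays per group. Each of the 3 passed under all 20 alternatives run for it.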

How the results depend on the processing

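Of the 390 alternative fits of named shoot results, 324 passed as in the main analysis, 66 no longer passed and 0 reversed. The shoot counts moved most with array weights, to 38 (WT cadmium), 16 (mutant cadmium), 23 (interaction), 23 (untreated genotypes) and 5 (treated genotypes). The interaction count was 8 in the upper 60% of probe sets by level, 6 with arrays centred, 6 with all 24 arrays in 1 model and 7 with a trended and robust prior. The count for untreated genotypes was 8 in the upper 60% and 2 with only the compared arrays, and that for treated genotypes 0 with only the compared arrays (limma; 41 before adjustment). Adding the 25S level to the model made the mutant cadmium count 3. With replicate number as a block the counts were 26, 9, 4, 8 and 2 in the same order, and the list probe sets called in roots, members included, were 17 in WT and 18 in the mutant. List probe sets were 17 in WT and 17 in the mutant with all 24 arrays, 6 and 7 with only the compared arrays, and 26 in the mutant with array weights. The rule gave 46 genes with a WT limit of -1 and 52 with a mutant limit of 0.

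Leaving out 1 array gave 13 to 24 (WT cadmium), 2 to 9 (mutant cadmium), 3 to 13 (interaction), 1 to 13 (untreated genotypes) and 0 to 1 (treated genotypes) members called, 3 to 9 and 8 to 9 list probe sets, and 75 to 194 genes by the rule. Shares of all probe sets were not counted under any alternative, so a move in a count may not be particular to the members. Centring and repeated quantile normalization gave 97 and 77 genes by the rule, 89 and 72 of them shared, and group medians gave 93 with 68 shared. No WT root difference of the 93 genes changed sign with centring or quantile normalization. The mutant root difference changed sign for 1 gene with centring and for 0 with quantile normalization. The causes were not tested. With 3 arrays a group, and values compressed near the floor, small changes of dim genes were not detectable. Promoter motifs were not run.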
